A study of Mus musculus with 6 samples.

Results

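Interferon-stimulated genes are genes whose transcription rises when a cell is exposed to interferon. A list of 40 such genes was followed in thymic epithelial cells (TECs), and 38 of the 40 were measured among 30176 genes. Members were taken by name, each as the probe set that carries that single gene symbol, and the probe set with the highest mean was used for *Irf1*, the member with 2. Of the remaining members, *Gbp5* is represented by a probe set it shares with *Gbp2b*, and *Ifi44* was not analysed here.

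Whole-transcriptome arrays of the mouse were used, 3 titled KO and 3 titled WT, each with RNA of TECs sorted as CD45-negative and EpCAM+. CD45 marks hematopoietic cells and EpCAM marks epithelium. All 6 samples carry loxP-flanked *Socs3* (socs3fl/fl). The samples titled KO also carry a Cre recombinase fused to an estrogen receptor domain (act cre ER), and all mice had received tamoxifen (Tm), with cells taken 7 days later. The Cre is driven by the β-actin promoter, so deletion is by design not limited to TECs and other cells of the thymus can lose the gene too.

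Interferons bind receptors at the cell surface, and Janus kinases bound to these receptors then phosphorylate STAT proteins. Type I and type III interferons act through a complex that holds STAT2 and IRF9 and binds the interferon-stimulated response element (ISRE). Type II interferon acts through the gamma-activated site (GAS). SOCS3, the product of the floxed gene, is a feedback inhibitor of Janus kinase signaling, best known for cytokines that signal through gp130. In the thymus, TECs of the medulla are known to produce interferons constitutively, without infection.

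The promoter sequences of the members show which of these elements lie close to their starts. RefSeq windows of GRCm38.p6, from 250 bases before to 50 bases after the annotated start, were matched for 31 of the 40 members. The ISRE was searched as GAAANNGAAA and the GAS as TTCNNNGAA, on both strands and with overlaps counted. An ISRE was in the windows of 18 members (58.1%) and of 1079 of 27025 genes (3.99%). A GAS was in the windows of 13 members (41.9%) and of 2582 genes (9.55%). Both elements were in 8 windows and neither in 8. A match is a description of the letters in the window, not a measured binding site.

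The following stretches are shown because they belong to members described below, and they differ in which element they hold. Capitals mark bases of an ISRE or a GAS match, and each run reads 5′ to 3′ along the gene. *Isg15*, *Ifit1* and *Irgm1* hold ISRE matches alone. *Gbp7*, *Oas1a* and *Ifitm3* hold both elements, and *Irf1* and *Irf8* hold GAS matches alone. The stretches of *Igtp* and *Irgm2*, neighbours on chromosome 11, are nearly the same sequence.
Isg15 (chr4:156200860-156200911, minus strand): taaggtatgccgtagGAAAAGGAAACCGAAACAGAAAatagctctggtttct
Ifit1 (chr19:34640770-34640828, plus strand): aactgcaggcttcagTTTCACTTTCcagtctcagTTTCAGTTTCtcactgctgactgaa
Irgm1 (chr11:48871420-48871465, minus strand): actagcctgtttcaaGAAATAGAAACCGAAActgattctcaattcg
Gbp7 (chr3:142530215-142530307, plus strand): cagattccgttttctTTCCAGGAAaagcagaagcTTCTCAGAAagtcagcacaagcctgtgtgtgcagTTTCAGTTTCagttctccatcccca
Oas1a (chr5:120907515-120907638, minus strand): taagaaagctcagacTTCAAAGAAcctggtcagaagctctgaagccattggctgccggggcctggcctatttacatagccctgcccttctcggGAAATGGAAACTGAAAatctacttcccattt
Ifitm3 (chr7:141010701-141010757, minus strand): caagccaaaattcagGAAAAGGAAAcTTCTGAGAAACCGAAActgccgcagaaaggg
Igtp (chr11:58199496-58199546, plus strand): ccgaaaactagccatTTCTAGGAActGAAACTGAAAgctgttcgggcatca
Irgm2 (chr11:58214887-58214937, plus strand): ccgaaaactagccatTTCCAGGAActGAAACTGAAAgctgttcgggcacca
Irf1 (chr11:53769909-53769947, plus strand): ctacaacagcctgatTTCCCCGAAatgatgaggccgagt
Irf8 (chr8:120736172-120736228, plus strand): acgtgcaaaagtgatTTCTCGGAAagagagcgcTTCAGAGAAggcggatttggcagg

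The targeted gene was examined first. *Socs3* had log2 signals of 8.55, 8.14 and 8.39 on the arrays labelled KO and 8.00, 8.25 and 7.88 on those labelled WT. The groups overlapped and the labelled KO group had the higher mean, with a log2 difference of 0.32 (SE 0.16, limma adjusted p = 0.284, exact two-sided permutation p = 0.2, where 3 arrays against 3 cannot go below 0.1). The groups did not overlap without labelled KO replicate 2, described below, with a difference of 0.42 (adjusted p = 0.0964), and after quantile normalization of all arrays the difference was 0.53 (adjusted p = 0.0383). Whether the probe set lies in the deleted part of the gene is not given in the sources used here, and both groups were dim. *Socs3* thus does not bear out the titles, and the arrays are called labelled KO and labelled WT throughout. Every difference below is the labelled KO mean minus the labelled WT mean. Under the titles, 43 of 43 measured genes from lists in the study's supplement have the sign opposite to that of the study. The genotype to which a direction belongs is therefore not settled.

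The array labelled KO replicate 2 stood apart. The standard deviation over genes was 2.33 on this array and 2.61 to 2.67 on the others, and its hybridization spikes averaged 9.78 against 10.98 to 11.18. A gene is called bright below where its mean over the 6 arrays exceeds 10.22, under which 95% of the negative control probe sets lie, and 4446 genes do so. On this array the 4446 bright genes were lower than the mean of the other 2 labelled KO arrays by a median log2 value of -0.58, and the 38 members by -0.71. It was the lowest of the 6 arrays in 36 of the 38 members (94.7%), against 41.8% of all genes and 77.4% of bright genes (21 of the 23 bright members, 91.3%). Results are therefore given with and without this array. Epithelial markers were bright in 11 of 11 cases, among them *Epcam*, *Krt5* and *Krt8*. Each group has 3 arrays, described as independent samples, and this number limits the precision of all values.

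With all 6 arrays, none of the 38 members differed between the groups at an adjusted p under 0.05 (limma, Benjamini-Hochberg over 30176 genes), where 1.7% of all genes did. The lowest adjusted p among members was 0.0557. The difference was below 0 in 33 members and above 0 in 5, while it was below 0 in 17051 of 30176 genes. Among bright genes it was below 0 in 20 of 23 members and in 3560 of 4446 genes. The median log2 difference of the members was -0.40, beside -0.05 over all genes and -0.34 over bright genes. At an unadjusted p under 0.05, 14 members (36.8%) were lower on the labelled KO arrays, against 17.9% of all genes, and 1 member, *Usp18*, was higher (2.63%, against 5.86%). All 3 labelled KO arrays lay below all 3 labelled WT arrays in 16 members (42.1%), against 26.5% of all genes. Among bright genes this held for 13 of 23 members (56.5%), against 47.6%. The reverse order held for *Usp18* alone, against 8.17% of all genes.

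**Figure D1:**
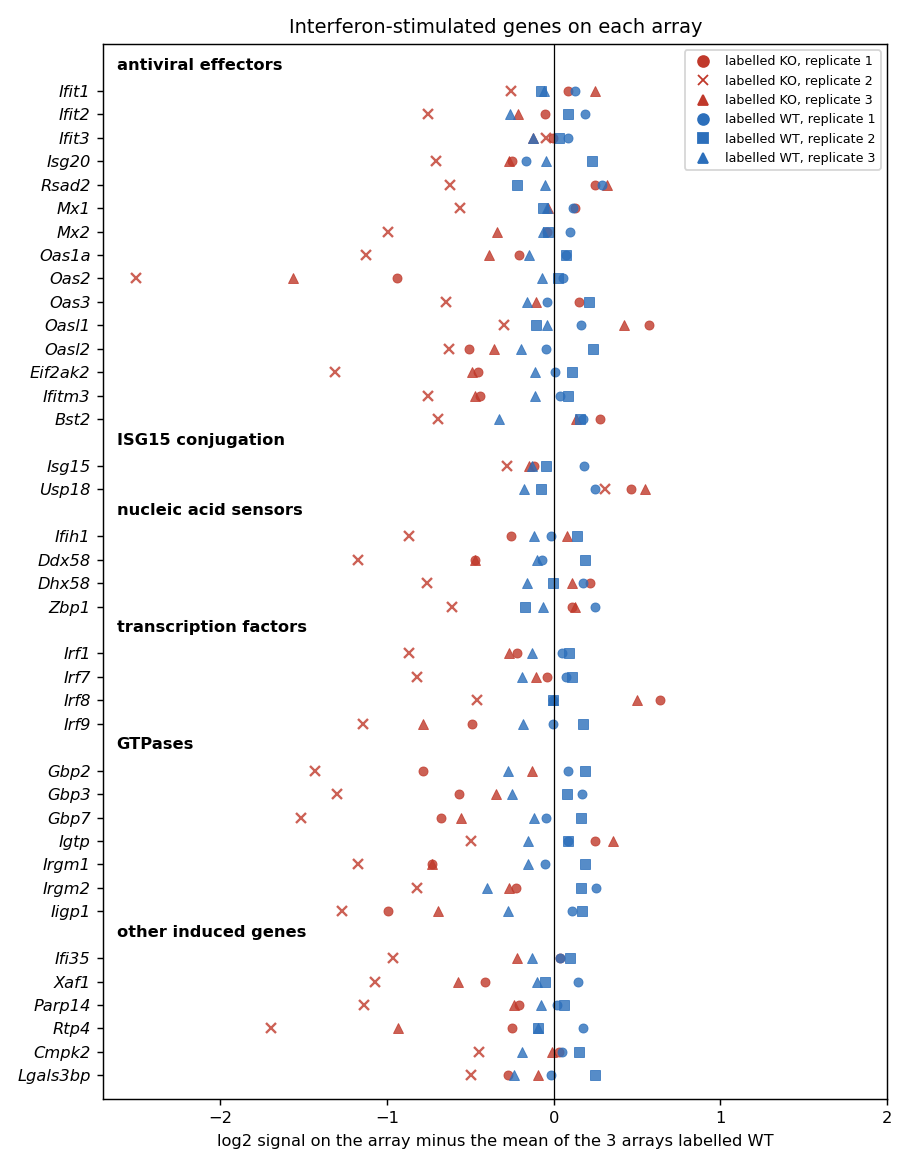
Log2 signal of 38 interferon-stimulated genes on each array minus the mean of the 3 arrays labelled WT, grouped by role. Red symbols are arrays labelled KO and blue symbols arrays labelled WT, and the cross, labelled KO replicate 2, is the lowest array in 36 of the 38 genes.

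Without labelled KO replicate 2, 11 members passed. Lower on the labelled KO arrays were *Oas2*, *Irf9*, *Ddx58*, *Gbp7*, *Irgm1*, *Iigp1*, *Ifitm3*, *Xaf1* and *Eif2ak2*, which are 9 of 38 (23.7%), against 6.05% of all genes. Higher were *Oasl1* and *Irf8*, 2 of 38 (5.26%), against 5.15%. The median log2 difference of the members was then -0.19, beside -0.08 over all genes and -0.16 over bright genes. Without any other single array 0 members passed, and at most 4 of 30176 genes did. In a fit restricted to bright genes, *Irgm1* and *Iigp1* were lower with all arrays (2 of 23, 8.7%, against 9.31%) and none was higher (against 2.7%). In the same fit without labelled KO replicate 2, 7 of 23 were lower (30.4%, against 18.3%) and *Usp18* alone was higher (4.35%, against 7.67%). After quantile normalization of all 6 arrays, *Oas2*, *Gbp7*, *Irgm1* and *Iigp1* were lower (10.5%, against 3.51%) and *Usp18* was higher (2.63%, against 3.8%), and the difference changed sign or came to 0 in 9 members.

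**Figure D2:**
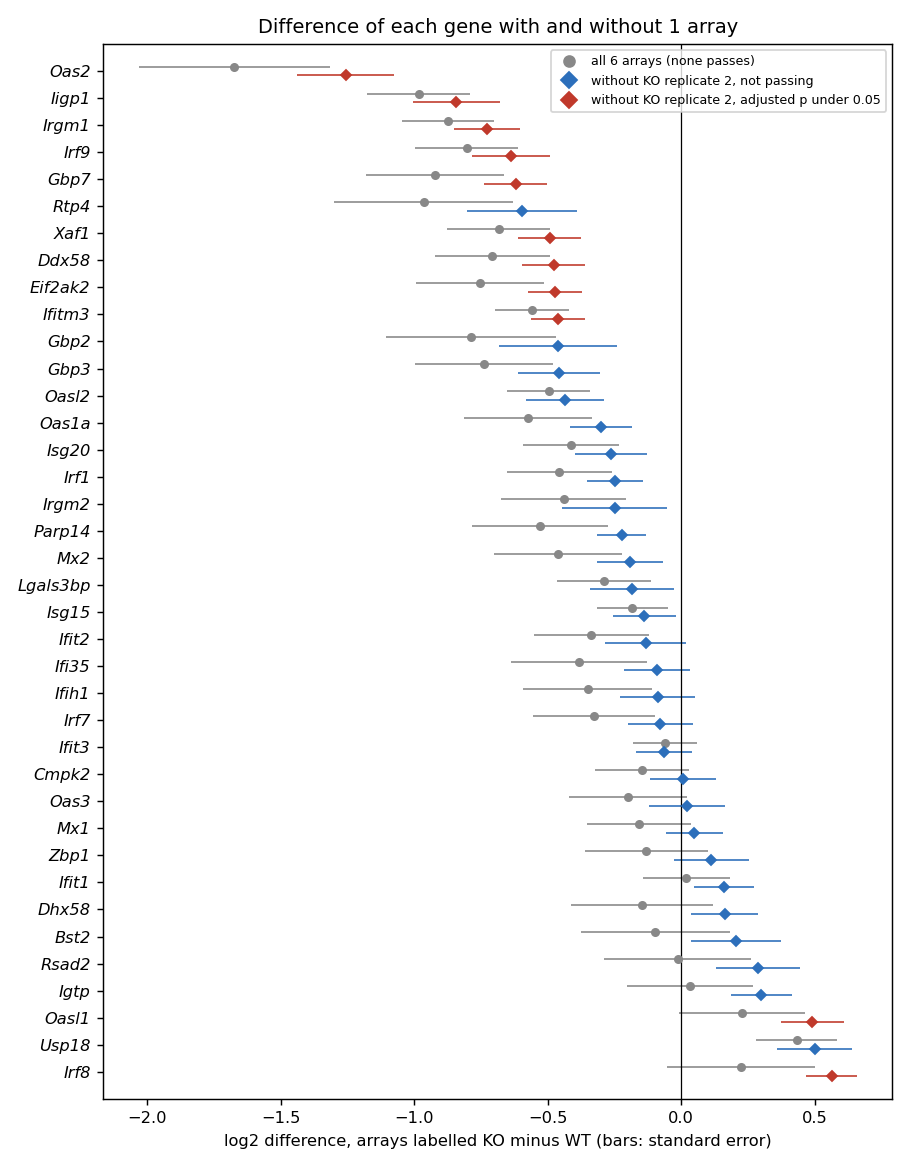
Log2 difference (labelled KO minus labelled WT) of each gene with its standard error, from all 6 arrays (grey circles) and without labelled KO replicate 2 (diamonds, red at an adjusted p under 0.05). No grey circle passes, while 9 red diamonds lie below 0 and 2 above.

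The antiviral effectors held 15 members, with a median log2 difference of -0.34 over all arrays. *Oas2*, an oligoadenylate synthetase that makes the activator of RNase L, had the largest difference of all members. Its log2 signals were 9.06, 7.50 and 8.44 on the labelled KO arrays and 10.06, 10.03 and 9.93 on the labelled WT arrays, without overlap. The difference was -1.67 (SE 0.36, adjusted p = 0.0659) with all arrays and -1.26 (SE 0.18, adjusted p = 0.0101) without labelled KO replicate 2. The signals of *Oas2* did not exceed the negative control percentile on any array, so they are given as a difference of signals and not as a fold of transcript. The related *Oas1a* ranged from 10.42 to 11.34 on the labelled KO arrays and from 11.40 to 11.62 on the labelled WT arrays, a difference of -0.57 that did not pass (adjusted p = 0.207). *Oas1a* and *Oas1g* are close copies, and the split of signal between them is uncertain.

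The oligoadenylate synthetase-like genes had differences of opposite sign. *Oasl1*, which inhibits translation of *Irf7* in mice, had signals of 8.91, 8.04 and 8.76 on the labelled KO arrays and 8.50, 8.23 and 8.30 on the labelled WT arrays. Its difference was 0.23 (adjusted p = 0.607) with all arrays and 0.49 (SE 0.12, adjusted p = 0.0452) without labelled KO replicate 2, when the groups no longer overlapped. All signals of *Oasl1* were under the negative control percentile. *Oasl2* ranged from 13.24 to 13.51 against 13.67 to 14.10, a difference of -0.50 without overlap that did not pass (adjusted p = 0.127). *Oas3* had a difference of -0.20 with all arrays and 0.02 without that array.

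*Eif2ak2* encodes PKR, the kinase that halts translation on double-stranded RNA. Its signals were 11.48, 10.62 and 11.44 on the labelled KO arrays and 11.94, 12.04 and 11.82 on the labelled WT arrays, all 3 of the former below all 3 of the latter. The difference was -0.75 (SE 0.24, adjusted p = 0.131) with all arrays and -0.47 (SE 0.10, adjusted p = 0.034) without labelled KO replicate 2. *Ifitm3*, a membrane protein that blocks virus entry, had 17.23, 16.92 and 17.20 against 17.71, 17.76 and 17.56. Its difference was -0.56 (SE 0.14, adjusted p = 0.0843) and -0.46 (SE 0.10, adjusted p = 0.0357) without that array, again with no overlap.

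The classical early response genes of this group did not pass in any of these fits. *Ifit1*, whose product binds viral RNA lacking cap methylation, ranged from 11.60 to 12.10 on the labelled KO arrays and from 11.78 to 11.98 on the labelled WT arrays, with a difference of 0.02 (SE 0.16). *Ifit3* ranged from 11.14 to 11.26 against 11.14 to 11.35, a difference of -0.06, and it is a near copy of *Ifit3b*. *Rsad2*, encoding the antiviral enzyme viperin, had a difference of -0.01 with all arrays and 0.29 without labelled KO replicate 2. *Mx1*, a GTPase that restricts influenza virus, went from -0.16 to 0.05, and *Mx2* from -0.46 to -0.19. *Bst2*, which tethers virus particles to the cell, went from -0.10 to 0.21. *Ifit2* and the exonuclease gene *Isg20* had differences of -0.34 and -0.41, and the labelled KO arrays lay below the labelled WT arrays in *Isg20* but not in *Ifit2*. Signals of *Isg20* did not exceed the negative control percentile on any labelled KO array, and its labelled WT mean was at least 1.19-fold higher.

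ISG15 is a ubiquitin-like modifier, and USP18 removes it from proteins and also restrains the type I interferon receptor. *Isg15* ranged from 8.41 to 8.57 on the labelled KO arrays and from 8.56 to 8.87 on the labelled WT arrays, a difference of -0.18 (SE 0.13, adjusted p = 0.452). Its signals were dim in both groups. *Usp18* was the member with the largest positive difference over all arrays, with signals of 14.54, 14.38 and 14.62 on the labelled KO arrays and 14.32, 14.00 and 13.90 on the labelled WT arrays. The difference was 0.43 (SE 0.15, adjusted p = 0.154) with all arrays, 0.50 (SE 0.14, adjusted p = 0.0681) without labelled KO replicate 2 and 0.65 (adjusted p = 0.0295) after quantile normalization.

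The nucleic acid sensors held 4 members. *Ddx58* encodes RIG-I, the sensor of viral RNA ends, and had signals of 11.14, 10.44 and 11.14 on the labelled KO arrays and 11.54, 11.80 and 11.51 on the labelled WT arrays. Its difference was -0.71 (SE 0.21, adjusted p = 0.12) with all arrays and -0.48 (SE 0.12, adjusted p = 0.0498) without labelled KO replicate 2, which is close to the threshold. *Ifih1*, encoding the long double-stranded RNA sensor MDA5, had a difference of -0.35 that came to -0.09 without that array. *Dhx58* (LGP2) and *Zbp1*, a sensor of left-handed nucleic acids, had differences of -0.15 and -0.13, which became 0.16 and 0.11. None of these 3 passed.

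The 4 transcription factors split in direction. *Irf9*, the DNA-binding subunit of the complex that recognizes the ISRE, had signals of 10.09, 9.44 and 9.80 on the labelled KO arrays and 10.58, 10.76 and 10.40 on the labelled WT arrays. The difference was -0.80 (SE 0.19, adjusted p = 0.0801) with all arrays and -0.64 (SE 0.15, adjusted p = 0.0392) without labelled KO replicate 2. All labelled KO signals of *Irf9* were at or under the negative control percentile, and the labelled WT mean was at least 1.28-fold higher.

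*Irf8*, a factor required for dendritic cell and macrophage development, had 10.38, 9.28 and 10.24 on the labelled KO arrays and 9.74, 9.74 and 9.74 on the labelled WT arrays. Labelled KO replicate 2 lay below and the other 2 labelled KO arrays above the labelled WT arrays, whose SD was 0.0058. The difference was 0.22 (SE 0.28, adjusted p = 0.672) with all arrays and 0.56 (SE 0.09, adjusted p = 0.0158) without that array. The mean signals of *Irf8* were dim in both groups, so this is a difference of signals and not a fold of transcript. *Irf1* ranged from 11.36 to 12.01 against 12.10 to 12.32, with a difference of -0.46 (adjusted p = 0.215). *Irf7*, which drives transcription of interferon alpha genes, ranged from 10.89 to 11.67 against 11.52 to 11.82, with a difference of -0.33 that came to -0.08 without labelled KO replicate 2.

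The interferon-inducible GTPases act on membranes that surround intracellular pathogens and on autophagy. Their 7 measured members had a median log2 difference of -0.79 with all arrays and -0.46 without labelled KO replicate 2. *Iigp1* had signals of 12.22, 11.94 and 12.52 on the labelled KO arrays and 13.32, 13.38 and 12.94 on the labelled WT arrays. *Irgm1*, a regulator of the other immunity-related GTPases, had 11.40, 10.96 and 11.40 against 12.08, 12.32 and 11.98. *Gbp7*, a guanylate-binding protein, had 11.56, 10.72 and 11.68 against 12.19, 12.40 and 12.12. In all 3 genes the labelled KO arrays lay below the labelled WT arrays without overlap.

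With all arrays the differences were -0.98 for *Iigp1* (SE 0.19, adjusted p = 0.0557), -0.87 for *Irgm1* (SE 0.17, adjusted p = 0.0562) and -0.92 for *Gbp7* (SE 0.26, adjusted p = 0.105). Without labelled KO replicate 2 they were -0.84 (adjusted p = 0.0245), -0.73 (adjusted p = 0.0167) and -0.62 (adjusted p = 0.0241), and all 3 also passed after quantile normalization. *Gbp2* and *Gbp3* had differences of -0.79 and -0.74 that did not pass (adjusted p = 0.194 and 0.154). *Irgm2* had -0.44 and was dim. *Igtp*, encoding Irgm3, was the GTPase with a difference above 0, at 0.03 with all arrays and 0.30 without that array. The near-identical promoter stretches of *Igtp* and *Irgm2* thus belonged to genes with differences of opposite sign, neither of which passed with all arrays or without that array.

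Of the other induced members, *Rtp4*, a chaperone of G protein-coupled receptors, had signals of 9.74, 8.30 and 9.06 on the labelled KO arrays and 10.17, 9.90 and 9.90 on the labelled WT arrays. Its difference was -0.96 (SE 0.33, adjusted p = 0.152) with all arrays and -0.60 (adjusted p = 0.113) without labelled KO replicate 2, so it passed in neither fit. *Xaf1*, an antagonist of the apoptosis inhibitor XIAP, had 10.56, 9.90 and 10.40 against 11.12, 10.92 and 10.87. Its difference was -0.68 (SE 0.19, adjusted p = 0.105) and -0.49 (SE 0.12, adjusted p = 0.0458) without that array. *Parp14*, a mono-ADP-ribosyltransferase, had a difference of -0.53 and did not overlap between the groups, while *Ifi35*, *Cmpk2* and *Lgals3bp* had differences of -0.38, -0.15 and -0.29 with overlapping groups.

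**Figure D3:**
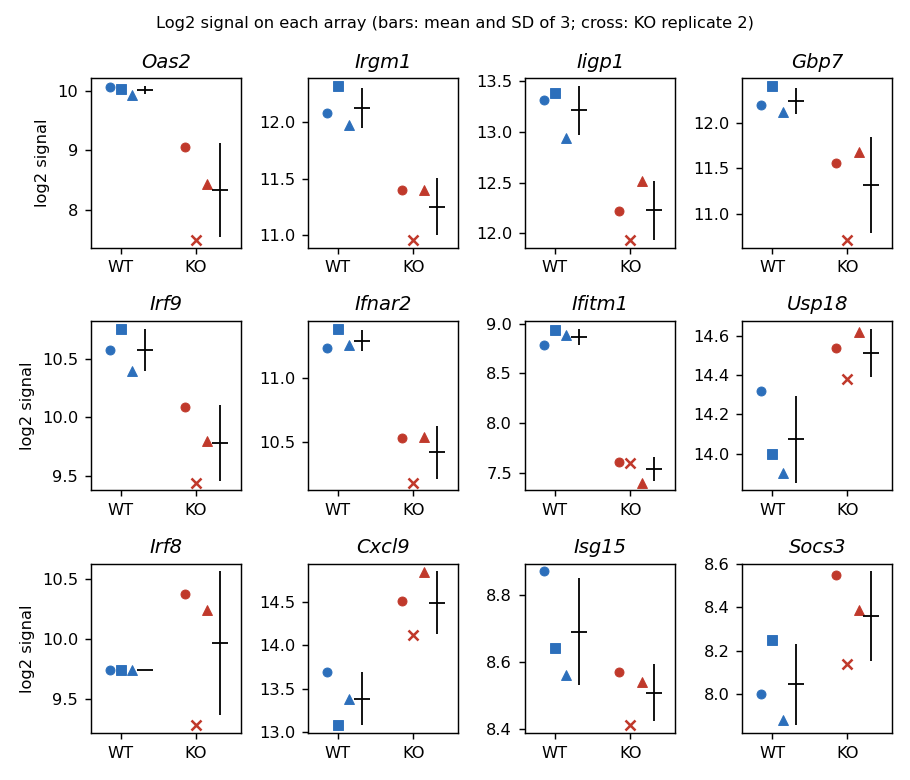
Log2 signal of 12 genes on each array, in its own range for each gene, with the mean and SD of the 3 arrays of a group beside the points. The cross is labelled KO replicate 2. *Oas2*, *Irgm1*, *Iigp1*, *Gbp7*, *Irf9*, *Ifnar2* and *Ifitm1* are lower on all labelled KO arrays, *Usp18* and *Cxcl9* are higher, and *Irf8*, *Isg15* and *Socs3* overlap.

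The spread among the labelled KO arrays was wider than among the labelled WT arrays. The labelled KO spread includes labelled KO replicate 2, the lowest of the 6 arrays in 36 of the 38 members. The SD of the members ranged from 0.0557 to 0.786 in the labelled KO group (median 0.41) and from 0.0058 to 0.352 in the labelled WT group (median 0.16). Members with a mean signal at or under the negative control percentile in both groups numbered 14, and 21 were above it in both. The former were *Ifit2*, *Rsad2*, *Mx1*, *Mx2*, *Oas2*, *Oas3*, *Oasl1*, *Isg15*, *Dhx58*, *Irf8*, *Irgm2*, *Ifi35*, *Rtp4* and *Cmpk2*. Their values are differences of mean signals not above that percentile, and not folds of transcript.

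**Figure D4:**
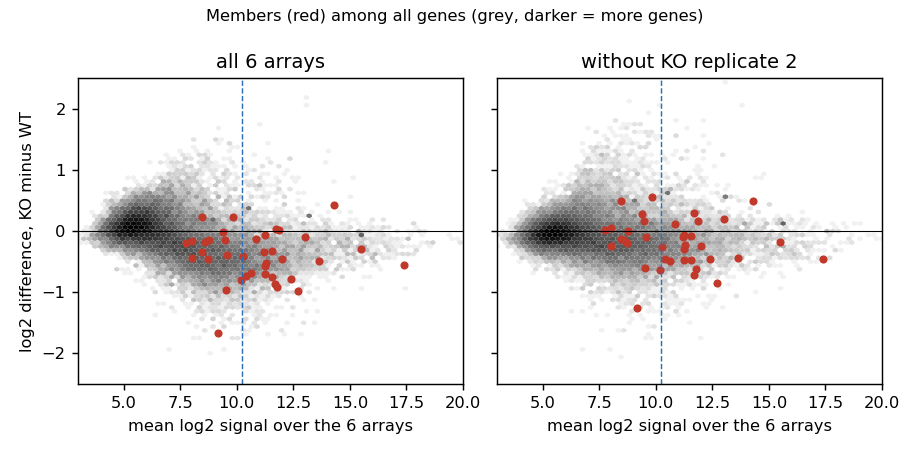
Log2 difference (labelled KO minus labelled WT) against mean log2 signal for all genes (grey) and 38 members (red), with all arrays on the left and without labelled KO replicate 2 on the right. The dashed line marks 10.22, the negative control percentile, and 20 and 27 genes lie outside the plotted range of 2.5 in either direction. With all arrays the bright genes as a whole lie below 0 (median -0.34), as the members do, and both shift up without that array.

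The differences of the members were also set beside the promoter elements. The 17 measured members with an ISRE in their window had a median log2 difference of -0.44 with all arrays and -0.25 without labelled KO replicate 2. The 12 measured members whose window had none had medians of -0.36 and -0.16. Without that array 5 of the first set passed as lower and 0 as higher, and 2 and 2 of the second, against 6.05% and 5.15% of all genes. The GAS gave a similar split, with medians of -0.43 and -0.25 in the 12 members that had one and of -0.33 and -0.14 in the 17 that did not. Calls lower and higher were 3 and 1 with a GAS and 4 and 1 without. These are descriptions of small sets, and no test of a difference was made.

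Interferons themselves were not detectable above the negative control percentile. Of 21 listed ligands 18 were measured, none was bright, and 0 passed with all arrays or without labelled KO replicate 2. *Ifnb1* had signals of 5.50, 6.35 and 5.70 on the labelled KO arrays and 5.77, 5.72 and 5.56 on the labelled WT arrays. *Ifng*, the type II interferon, had 5.14, 6.09 and 5.82 against 5.39, 5.14 and 5.32. The array that stood apart had the highest mean of this list, with a log2 signal of 6.36 on labelled KO replicate 2 and of 5.92 to 6.03 on the other 5 arrays.

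Without labelled KO replicate 2, 3 of 13 measured receptors and transducers were lower and 1 was higher, against 6.05% and 5.15% of all genes. In the fit restricted to bright genes without that array, 2 of 9 were lower and 1 was higher, against 18.3% and 7.67%. With all arrays 1 of the 13 passed, against 1.7% of all genes. This was *Ifnar2*, a chain of the type I interferon receptor. Its signals were 10.53, 10.18 and 10.54 on the labelled KO arrays and 11.24, 11.39 and 11.26 on the labelled WT arrays. The difference was -0.88 (SE 0.14, adjusted p = 0.0416), and -0.77 (adjusted p = 0.0068) without labelled KO replicate 2. *Ifnar1*, the partner chain, had a difference of -0.61 that did not pass (adjusted p = 0.245). Without that array, *Ifnlr1* and *Il10rb*, which together form the type III interferon receptor, were lower by log2 differences of -0.73 (adjusted p = 0.0454) and -0.43 (adjusted p = 0.0367). *Ifnlr1* was dim in both groups and *Il10rb* in the labelled KO group. *Ifngr2*, a chain of the type II receptor, was higher by 0.65 (adjusted p = 0.0196), while its partner *Ifngr1* had -0.35 and did not pass.

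*Stat2*, the partner of IRF9, had signals of 12.30, 11.08 and 12.26 on the labelled KO arrays and 12.30, 12.42 and 12.06 on the labelled WT arrays. The difference was -0.38 with all arrays and 0.02 without labelled KO replicate 2. That array lay below the labelled WT range and the other 2 labelled KO arrays lay within it. *Jak1* and *Socs1*, a kinase of these receptors and an inhibitor of interferon signaling related to SOCS3, had differences of -0.57 and -0.06 that did not pass.

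Among 12 measured inducers of interferon, 0 passed with all arrays. When labelled KO replicate 2 was left out, 3 were higher and 2 lower, against 5.15% and 6.05% of all genes. Without labelled KO replicate 2, *Tlr9*, a receptor for unmethylated DNA, was higher by 1.15 (adjusted p = 0.00458), *Ikbke* by 0.92 and *Irf5* by 0.56. *Myd88*, the adaptor of Toll-like receptors, was lower by a log2 difference of -0.63 (adjusted p = 0.0219) and *Irf3* by -0.49. These 5 genes were dim in both groups.

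A further list held interferon-induced genes that are not members. Of 51 measured of 63 listed, 1 passed with all arrays, against 1.7% of all genes. This was *Ifitm1*, with signals of 7.61, 7.60 and 7.40 on the labelled KO arrays and 8.78, 8.94 and 8.88 on the labelled WT arrays. The difference was -1.33 (SE 0.13, adjusted p = 0.0252). Every signal of *Ifitm1* was under the negative control percentile. Without labelled KO replicate 2, 3 of the 51 were lower (*Ifitm1*, *Ifitm2* and *Slfn5*), against 6.05% of all genes. Higher were 7 of the 51 (*Aim2*, *Cxcl9*, *Gbp4*, *Gbp8*, *Gbp9*, *Ido1* and *Ifi30*), against 5.15%. The lower calls were thus near the share of all genes, and the higher calls exceeded it. *Ifitm1*, *Slfn5*, *Aim2* and *Ido1* were dim in both groups. *Cxcl9*, a chemokine induced mainly by type II interferon, had signals of 14.51, 14.12 and 14.84 on the labelled KO arrays and 13.69, 13.08 and 13.38 on the labelled WT arrays. Its difference was 1.11 (SE 0.23, adjusted p = 0.0623) with all arrays and 1.29 (adjusted p = 0.0115) without that array. *Cxcl10*, a related chemokine, had -0.62 and did not pass (adjusted p = 0.114).

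Gene clusters were compared after these values were seen. The guanylate-binding protein genes lie in 2 clusters, on chromosomes 3 and 5. The measured genes of the first, *Gbp7*, *Gbp3* and *Gbp2*, had log2 differences of -0.92, -0.74 and -0.79, and those of the second, *Gbp8*, *Gbp9* and *Gbp4*, had 0.76, 0.48 and 0.90. Without labelled KO replicate 2 the former were -0.62, -0.46 and -0.46 and the latter 1.06, 0.73 and 1.17. None of these 6 genes passed with all arrays. Genes within each cluster are close in sequence, so signal can be shared between neighbours. The 3 neighbouring *Ifitm* genes had differences of the same sign, at -1.49 for *Ifitm2*, -1.33 for *Ifitm1* and -0.56 for *Ifitm3*, and all 3 passed without labelled KO replicate 2. Other clusters were mixed. The 4 *Ifit* genes on chromosome 19 had differences from -0.41 for *Ifit3b* to 0.02 for *Ifit1*, none of which passed in either fit. The 8 *Oas* and *Oasl* genes on chromosome 5 ranged from -1.67 for *Oas2* to 0.23 for *Oasl1*.

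**Figure D5:**
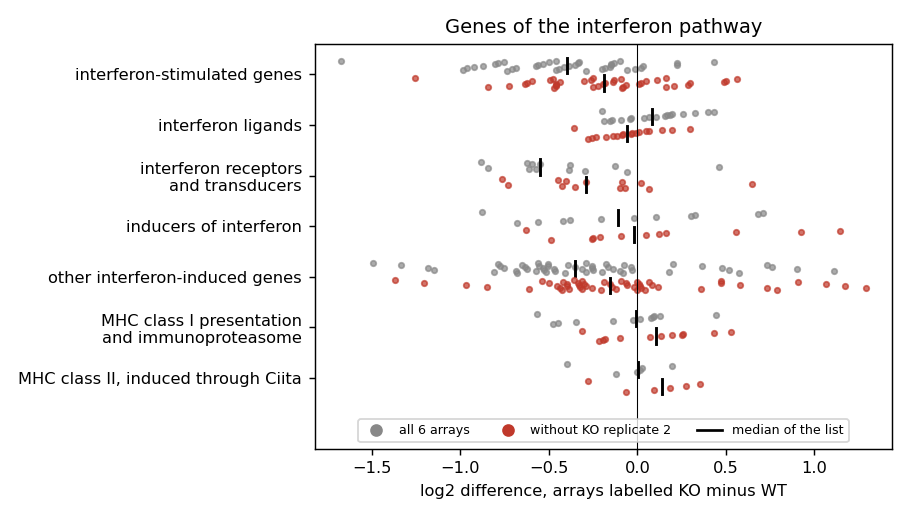
Log2 difference (labelled KO minus labelled WT) of each measured gene of 7 lists of the interferon pathway, with all 6 arrays (grey) and without labelled KO replicate 2 (red), and the median of each list as a black bar. The median of the members is -0.40 and -0.19, and that of MHC class I presentation is -0.01 and 0.10.

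Antigen presentation is also induced by interferons. The 12 measured genes of MHC class I presentation and the immunoproteasome had a median log2 difference of -0.01, with 0 calls with all arrays. Without labelled KO replicate 2, *Psme1*, a subunit of the proteasome activator, was higher by 0.53 (adjusted p = 0.0319). It was 1 of 12, against 5.15% of all genes. *B2m* and *H2-K1* had differences of -0.14 and 0.08. The 6 measured genes of MHC class II had a median of 0.01 and 0 calls in either fit, and *Ciita*, their transactivator, had 0.03.

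Some markers of cell types differed between the groups too. For comparison, 1.7% of all genes passed with all arrays. Without labelled KO replicate 2, 5.15% were higher and 6.05% lower. With all arrays *Aire*, the regulator of self-antigens in medullary TECs, was higher on the labelled KO arrays by 1.76 (adjusted p = 0.0386). *Psmb11*, the proteasome subunit of cortical TECs, had -1.52 and did not pass (adjusted p = 0.0985). Of the 11 epithelial markers, all bright, 2 had differences above 0 with all arrays and 9 below, beside 3560 of 4446 bright genes below 0. Without labelled KO replicate 2, *Aire* and *Cldn4* were higher and *Krt14* was lower. The differences were 1.09 for *Cldn4* (adjusted p = 0.0317) and -0.57 for *Krt14* (adjusted p = 0.0269). Dendritic cells and macrophages were covered by 17 measured markers. Of these, *Lyz2*, *Mrc1* and *C1qb* were higher with all arrays. Without labelled KO replicate 2, *Adgre1*, *Csf1r*, *Itgam* and *Xcr1* were higher as well, 7 in all, and 0 were lower. With all arrays 15 of the 17 had differences above 0, beside 13125 of 30176 genes. The other 2 were *Sirpa*, at -0.65 without overlap, and *Cd68*, at -0.30, and neither passed. The mean log2 signal of the 17 markers was 7.37 to 7.45 on the labelled KO arrays. It was 6.91 to 7.03 on the labelled WT arrays, and 1 of the 17, *Lyz2*, was bright. *Ptprc*, which encodes CD45, was under the negative control percentile on all 6 arrays. The mean signal of 10 thymocyte markers was 7.78 on labelled KO replicate 2, 8.40 and 8.80 on the other labelled KO arrays and 7.88 to 8.32 on the labelled WT arrays. All 10 had differences above 0, with a median of 0.26 and 0 calls with all arrays. Without labelled KO replicate 2 the median was 0.54, and *Dntt* and *Thy1* were higher. Of the 10 markers 2 were bright, and *Dntt* and *Thy1* were dim in both groups. Of 8 measured markers of plasmacytoid dendritic cells, 6 had differences above 0, with a median of 0.26. *Tcf4* was lower with all arrays by a log2 difference of -1.08 (adjusted p = 0.0424), and without labelled KO replicate 2 *Ly6d* was higher by 1.42 (adjusted p = 0.0144). *Tcf4*, *Spib*, *Klk1* and *Ly6d* were bright, while *Siglech*, the defining marker, was dim at 6.10 to 7.02. Which cells gave these signals was not tested. None of the markers of B cells, fibroblasts and endothelium passed with all arrays. *Pdgfrb*, a fibroblast and pericyte marker that was dim in both groups, was higher by 0.66 (adjusted p = 0.0179) without labelled KO replicate 2. The part of these cell types in the values of *Irf8*, *Tlr9* and the members was not tested, and in such bulk samples fewer cells of a type and less RNA per cell cannot be told apart.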

How the data were processed

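The deposited values are log2 signals, 1 for each probe set on each array, which the authors derived with MAS5 from biotin-labelled antisense RNA. Their methods also describe median normalization of chips and of genes. The values are not centred by gene and their array medians differ, so it is unknown which steps they include. It has 72688 probe sets, of which 30638 have a single gene symbol in an annotation of 2017 and 2176 have several. The latter and unannotated probe sets were left out. The genome build is not given in the sources used here.

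Each array was shifted to a common median over genes. The probe set with the highest mean was kept for each of 30176 genes. The groups were compared by limma 3.58.1 under R 4.3.3 (eBayes without a trend, 4 residual and 3.19 prior degrees of freedom), with Benjamini-Hochberg adjustment over all genes and a threshold of 0.05. The fit was tested on simulated data. Tables were made with Python 3.11.15, pandas 2.3.3 and scipy 1.17.1. The labels do not say whether replicate numbers mark pairs, and the main fit did not pair the arrays. Alternatives were other scalings, filters, probe set summaries, variance models, thresholds, the methods' t-test, a replicate block and leaving out each array.

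Members, lists and tests were chosen with earlier results of these data known. Full values are given for members called in the fit of all arrays or without any single array, the 3 largest differences in each direction, and *Irf9* and *Stat2*. From other lists, genes called with all arrays or without labelled KO replicate 2 and up to 3 of defining function are named. Symbols *Tmem173* and *Mb21d1* were matched through RefSeq synonyms. Promoter sequences are from RefSeq.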

Additional observations from a re-analysis of the deposited data

How the results depend on the processing

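With all arrays 0 members were called, and 156 genes in all were higher and 356 lower. Members called lower numbered 4 after quantile normalization, 2 and 3 with the strict and the loose filter on dim genes, 10 with array weights and 14 at an unadjusted p. Members called higher numbered 1 after quantile normalization, with array weights and at an unadjusted p. Some alternatives were chosen after seeing the data. With the strict filter and without labelled KO replicate 2, lower and higher members numbered 7 and 1, beside 815 and 341 of 4446 genes. With quantile normalization and without that array they numbered 6 and 4, beside 1290 and 1810 of 30176 genes. By the methods' t-test unadjusted they numbered 9 and 1, beside 5816 of 30176 genes in either direction. Leaving out 1 array at a time gave 0 to 9 members lower and 0 to 2 higher, and the upper ends came from leaving out labelled KO replicate 2. Over all genes, the higher and lower counts were 1148 and 1059 with quantile normalization, 338 and 895 with the loose filter, 1813 and 2730 with array weights, 1768 and 5393 at an unadjusted p, and 3 and 1 by the methods' t-test adjusted. Without the shift, 367 were higher. Leaving out 1 array gave 0 to 1554 higher and 0 to 1827 lower, and at most 4 in all unless labelled KO replicate 2 was the one left out. The median difference of members ranged from -0.50 to -0.19 in those fits.

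The replicate block gave 25 higher and 4 lower genes and 0 members. Same-numbered arrays had correlations of 0.073, -0.131 and -0.18 after each gene was centred within its group. With 3 arrays a group and 1 that stood apart, such correlations cannot decide whether the numbers mark pairs.

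Differences that changed sign were small. Without the shift they were 0.077 for *Ifit3*, 0.12 for *Rsad2*, 0.0067 for *Zbp1* and 0.04 for *Bst2*. With quantile normalization they were 0.28 for *Ifit3*, 0.088 for *Isg15*, 0.32 for *Rsad2*, 0.0039 for *Mx1*, 0.20 for *Dhx58*, 0.21 for *Zbp1*, 0.14 for *Bst2* and 0.14 for *Cmpk2*. With array weights they were 0.20 for *Rsad2*, 0.030 for *Oas3*, 0.11 for *Dhx58*, 0.038 for *Zbp1*, 0.20 for *Bst2* and 0.027 for *Cmpk2*. Leaving out 1 array gave -0.09 to 0.16 for *Ifit1*, -0.18 to 0.29 for *Rsad2*, -0.30 to 0.048 for *Mx1*, -0.37 to 0.022 for *Oas3*, -0.33 to 0.16 for *Dhx58*, -0.26 to 0.11 for *Zbp1*, -0.13 to 0.30 for *Igtp*, -0.29 to 0.21 for *Bst2* and -0.24 to 0.0067 for *Cmpk2*. The cause was not tested. With 3 arrays a group and 14 members dim in both, differences of this size are not resolved.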
